A study of Caenorhabditis elegans with 16 samples.

Results

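The UDP-glucuronosyltransferase family of Caenorhabditis elegans was followed through 16 RNA-seq libraries. Members were the genes whose WBcel235 symbol is ugt- followed by a number, which gave 67 of the 46589 genes in the table, all of them protein coding. The similarly named ugtp-1 is not a member. No source used here names the genome build behind the positions in the deposited table, by which 42 members lie on chromosome V, 12 on IV, 5 on I, 4 on X, 3 on III and 1 on II.

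RNA was taken from whole wild-type N2 worms, the standard laboratory strain, in 4 groups of 4 libraries, each library from its own plate. Synchronised worms were held in S Medium for 24 h with 1.25 μg/ml tunicamycin (TM), a drug that blocks N-linked glycosylation and so disturbs protein folding in the endoplasmic reticulum. The exposure took place either at the embryonic stage (EMBRYO TM) or at the L4 larval stage (L4 TM), each with its untreated control (EMBRYO CNT and L4 CNT), and worms of all groups are described as Day 1 adults. By the labels worms of both arms were moved to plates after treatment until adult, while the methods give the L4 exposure as running up to Day 1, so less time passed between exposure and harvest in the L4 arm than in the EMBRYO arm. The comparisons asked how exposure at each stage altered the adult transcriptome. In the deposited table the authors' group means are headed L1 for the EMBRYO groups and D1 for the L4 groups.

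UDP-glucuronosyltransferases are membrane enzymes of the endoplasmic reticulum that join a sugar from a UDP-sugar donor to small fat-soluble molecules, which makes them water-soluble and ready for export. They belong to the second phase of detoxification, after oxidation by cytochrome P450 enzymes and beside the glutathione S-transferases. In the nematode the family is large, its members lie partly in tandem runs, and many are expressed in the intestine. The natural substrates of most single members are not assigned, so they are ordered here by response rather than by role.

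Values are FPKM, fragments counted per unit of gene length and of sequencing depth, so levels can be set beside each other between genes. Reads on genes ranged from 12361026 to 47193068 per library. The deepest library, L4 TM replicate 4, had only 0.702% of its detected genes at a single read, against 8.97% to 10.9% elsewhere, and the fewest genes detected, 15377 against 17539 to 21833. The yolk protein genes vit-1 to vit-6, which mark the adult intestine, summed to 3679.3 to 5613.4 FPKM in EMBRYO CNT, 6495.7 to 22386.1 in EMBRYO TM, 19651.0 to 23421.0 in L4 CNT and 13948.2 to 17790.1 in L4 TM. Among them vit-3 averaged 3.87 FPKM in EMBRYO CNT against 439.6 in EMBRYO TM and 1103.9 in L4 CNT, so the label of Day 1 adults met low yolk gene levels in the EMBRYO controls. EMBRYO TM replicate 4 stood apart from the other 3 libraries of its group, with a yolk sum of 6495.7 FPKM against at least 16371.9, and an intestine marker sum of 7560.8 against at least 13426.4. Most of the intestine sum was asp-1, with means of 8514.4 FPKM in EMBRYO CNT, 11069.1 in EMBRYO TM, 4455.2 in L4 CNT and 2238.2 in L4 TM. The sum therefore mainly describes that gene.

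The family as a whole was lowest in EMBRYO CNT. The 67 members summed to 287.3 ± 9.89 FPKM (SD, n = 4) in EMBRYO CNT, 391.7 ± 62.5 in EMBRYO TM, 421.4 ± 41.4 in L4 CNT and 420.7 ± 46.7 in L4 TM. No library of EMBRYO CNT, which ended at 294.9 FPKM, reached the lowest of EMBRYO TM at 337.8, while the L4 groups overlapped, from 391.4 to 482.6 in L4 CNT and from 389.2 to 490.1 in L4 TM. Total FPKM over all genes also differed between libraries. As a share of it, the family held 0.0401% to 0.0438% in EMBRYO CNT and 0.0448% to 0.0726% in EMBRYO TM, a narrower gap. The shares were 0.0496% to 0.0671% in L4 CNT and 0.0485% to 0.0676% in L4 TM. Replicate 4 was the highest library of both TM groups, at 475.8 and 490.1 FPKM. The sum was not tested, as the members were chosen together. The number of members at 1 FPKM or more was 35 to 37 per library in EMBRYO CNT, 43 to 46 in EMBRYO TM, 40 to 44 in L4 CNT and 42 to 45 in L4 TM.

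**Figure D1:**
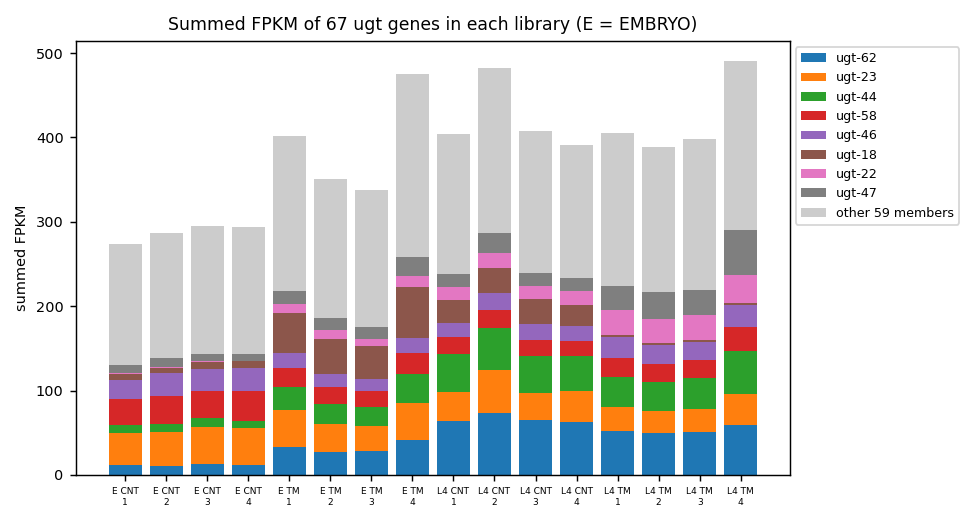
Summed FPKM of the 67 ugt genes (vertical axis) in each of the 16 libraries (bars, group and replicate below), with 8 of the highest members in colour and the other 59 in grey. The EMBRYO CNT bars end between 273.5 and 294.9 FPKM and those of the other groups between 337.8 and 490.1, with the ugt-18 segment widest in EMBRYO TM and narrowest in L4 TM.

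A few members made up much of each sum. The 5 highest held 43.3% of the family's FPKM in EMBRYO CNT, 42.1% in EMBRYO TM, 46.9% in L4 CNT and 44.5% in L4 TM on average. In all EMBRYO CNT libraries the highest member was ugt-23 (chromosome X, 9922903 to 9924990), with 14% to 14.8% of the sum. In EMBRYO TM it was ugt-18, with 11.4% to 12.6%, and in both L4 groups it was ugt-62, with 12.1% to 15.9%. The share held by ugt-18 was 2.51% in EMBRYO CNT, 11.9% in EMBRYO TM, 6.59% in L4 CNT and 0.578% in L4 TM.

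The order of the leading members also differed between groups. In EMBRYO CNT the means ran from ugt-23 (41.3 FPKM) over ugt-58 (32.5), ugt-46 (26.3) and ugt-50 (12.0) to ugt-62 (11.9), and the libraries of the last pair overlapped. In EMBRYO TM they ran from ugt-18 (46.9) over ugt-23 (37.7), ugt-62 (32.6) and ugt-44 (26.7) to ugt-58 (21.6), where each overlapped the next. In L4 CNT the order was ugt-62 (65.9), ugt-44 (45.1), ugt-23 (38.6), ugt-18 (27.7) and ugt-58 (19.8), with ugt-44 and ugt-23 overlapping. In L4 TM ugt-62 (53.0) was followed by ugt-44 (39.8), ugt-47 (35.7), ugt-22 (30.2) and ugt-23 (29.2), again with overlap between each and the next. The member ugt-23 was among the 5 highest in every group, and its log2 fold change was -0.15 (95% interval -0.44 to 0.15) for EMBRYO TM and -0.38 (-0.75 to -0.02) for L4 TM, neither past the test.

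Exposure at the embryonic stage was followed by higher levels of 11 members and a lower level of 1. These rose from 2.57-fold (ugt-48) to 9.71-fold (ugt-22) in mean FPKM, and ugt-1 was the member that fell. A gene was called when its log2 fold change exceeded 1 in either direction and its limma adjusted p was under 0.05. Of the 67 members, 43 passed the filter of a mean of 1 FPKM over the 8 libraries, and 11 of them were called higher, where 5.06% of all 14930 genes tested were. The single lower call compares with 7.61% of all genes. On the adjusted p alone 21 members were higher and 9 lower, where 25.7% and 27% of all genes were. The libraries of the groups did not overlap for 29 of the 43, against 48.5% of all genes, and voom on the recovered reads, which tested 49 members, called 16 higher and 3 lower, where 7.11% and 11.8% of all genes were. The median log2 fold change was 0.30 over the members tested and -0.03 over all genes. The p-values measure the spread between plates, and in whole worms a change in the number of cells of a type cannot be told apart from a change in RNA per cell.

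Among the members with the highest levels after treatment were ugt-18, ugt-62 and ugt-44. For ugt-18 (chromosome V, 12820265 to 12822758), the 4 EMBRYO CNT libraries held 7.32, 6.05, 7.80 and 7.73 FPKM and the EMBRYO TM libraries 47.6, 41.4, 38.5 and 60.0. The lowest treated library was thus well above the highest control, and replicate 4 was the highest. Its log2 fold change was 2.53 ± 0.14 (SE), with a limma adjusted p of 1.85e-06, and the mean ratio was 6.49-fold. Mean levels of ugt-62 (chromosome III, 4537277 to 4540623) went from 11.9 ± 1.19 to 32.6 ± 6.75 FPKM (SD, n = 4), with 11.6, 10.6, 13.4 and 12.2 in the controls and 33.5, 27.01, 28.0 and 41.7 in the treated libraries. The groups did not overlap, and the log2 fold change was 1.36 ± 0.14 (SE, limma adjusted p = 6.34e-05). For ugt-44 (chromosome IV, 10469763 to 10471890), controls held 9.69, 9.47, 10.3 and 8.97 FPKM and treated libraries 27.1, 24.4, 21.5 and 33.7. All treated libraries were above all controls, with a log2 fold change of 1.37 ± 0.13 (SE, limma adjusted p = 3.50e-05).

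The next members, ugt-22, ugt-26, ugt-12 and ugt-48, were at low levels in the controls. In EMBRYO CNT, ugt-22 (chromosome IV, 13639266 to 13644401) was at 1.23, 1.18, 1.27 and 0.880 FPKM, and in EMBRYO TM at 10.98, 10.7, 9.11 and 13.4. No other called member had a larger mean ratio, 9.71-fold, and the log2 fold change was 2.49 ± 0.12 (SE, limma adjusted p = 1.05e-06). Levels of ugt-26 (chromosome I, 4721178 to 4723960) were 1.69, 1.299, 1.45 and 1.70 FPKM in the controls and 8.04, 8.45, 7.30 and 10.1 after treatment, again without overlap, for a log2 fold change of 1.90 ± 0.11 (SE, limma adjusted p = 2.81e-06). The third, ugt-12 (chromosome V, 4887173 to 4889616), had 3.38, 3.26, 3.11 and 3.83 FPKM in the controls and 12.8, 9.04, 10.5 and 16.1 in the treated libraries. Its treated libraries were spread wider than its controls, and it changed by 1.55 ± 0.16 on the log2 scale (SE, limma adjusted p = 5.54e-05). For ugt-48 (chromosome V, 5545703 to 5548073) the means were 2.92 ± 0.337 and 7.51 ± 1.60 FPKM (SD, n = 4), a log2 fold change of 1.10 ± 0.14 (SE, limma adjusted p = 0.000246). It overlaps cft-1 on the opposite strand by 64 bases, and whether the counting used strand is not stated.

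The other 4 that rose, ugt-63, ugt-16, ugt-19 and ugt-41, averaged under 1 FPKM in EMBRYO CNT and passed the filter only through the treated libraries, so a difference was built into their being tested. Controls of ugt-63 (chromosome V, 5108015 to 5110789) held 0.255, 0.294, 0.189 and 0.505 FPKM and treated libraries 2.02, 3.15, 2.43 and 2.36. For ugt-16 (chromosome V, 12825026 to 12827432) the values were 0.352, 0.663, 0.417 and 0.209 and 2.60, 2.37, 1.083 and 2.40, with replicate 3 far below the other treated libraries and still above the controls. Mean levels of ugt-19 went from 0.987 ± 0.141 to 3.09 ± 0.754 FPKM, and those of ugt-41 from 0.639 ± 0.414 to 2.34 ± 0.646 (SD, n = 4). The log2 fold changes of the 4 were 1.41 ± 0.16, 1.12 ± 0.21, 1.03 ± 0.15 and 1.04 ± 0.21 (SE) in this order, with limma adjusted p from 0.000121 to 0.00314. Both of the last pair lay near the threshold, as ugt-19 dropped to 0.91 without EMBRYO TM replicate 4 and 0.99 without EMBRYO CNT replicate 4, and ugt-41 to 0.92 without EMBRYO TM replicate 4, 0.97 without EMBRYO CNT replicate 1 and 0.97 without EMBRYO CNT replicate 2.

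The member that fell, ugt-1 (chromosome V, 10395677 to 10397817), went the other way at a similar size. Its 4 EMBRYO CNT libraries held 10.0, 9.21, 8.69 and 8.65 FPKM and its EMBRYO TM libraries 2.55, 2.24, 2.07 and 3.39, a log2 fold change of -1.52 ± 0.12 (SE, limma adjusted p = 1.44e-05). All treated libraries were below all controls, and the treated mean was 3.57-fold lower. The next gene, ugt-55, chosen after its values were seen, was just inside the threshold at -0.999 ± 0.13 (SE, limma adjusted p = 0.000272), with means of 4.53 and 1.79 FPKM. It passed at -1.05 without EMBRYO CNT replicate 1, -1.004 without EMBRYO CNT replicate 4 and -1.11 without EMBRYO TM replicate 4, which makes the lower calls 2.

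**Figure D2:**
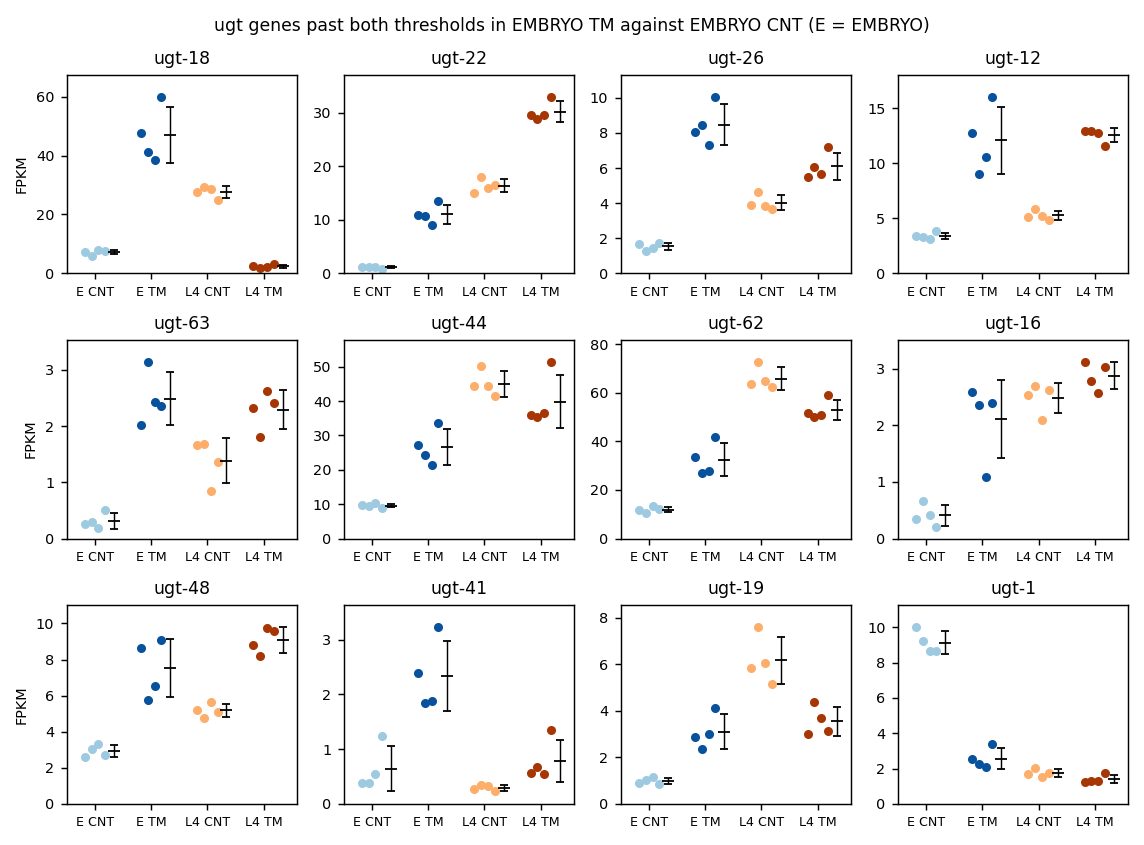
FPKM (vertical axes, each from 0) of the 12 ugt genes past both thresholds in EMBRYO TM against EMBRYO CNT, 1 point per library, with the mean and SD of the 4 libraries of each group drawn beside the points. In 11 panels all EMBRYO TM points lie above all EMBRYO CNT points, and in the ugt-1 panel all lie below.

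EMBRYO TM replicate 4 was the highest treated library for 9 of the 11 members called higher, while it was the lowest of its group in yolk and intestine marker sums. Without that library 9 members were called higher and 2 lower. Under every alternative in which they were tested, ugt-12, ugt-18, ugt-22, ugt-26, ugt-44 and ugt-62 were called. Of these, ugt-26 did not pass the filter of a mean of at least 5 FPKM and was not tested there. All 6 yolk genes were higher in EMBRYO TM, as were 9 of the 9 sperm markers tested, 3 of 10 intestine markers (pho-1, act-5 and vha-6), 3 of 12 germline markers and 1 of 10 epidermis markers. Neuron markers were lower for 2 of 10 and body muscle markers for 3 of 10. The ranges of the marker sums did not overlap for sperm, from 206.1 to 241.8 FPKM in EMBRYO CNT and 689.8 to 717.3 in EMBRYO TM, nor for neurons, from 611.9 to 658.5 and 330.8 to 357.4. They did overlap for intestine, from 8949.4 to 9973.0 and 7560.8 to 16236.4, and for germline, from 2244.9 to 3247.9 and 2484.8 to 4614.5. Most of the intestine sum was asp-1, which was not called here. Among epidermis markers the sums were 133.8 to 143.2 and 137.0 to 178.3 FPKM, and among body muscle markers 3764.5 to 4034.4 and 2021.1 to 2538.7. No marker on these lists was at 0 in all libraries of a group. The part of these differences in the ugt values was not tested, and a difference in developmental stage between the EMBRYO groups at harvest and an effect of TM cannot be told apart.

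Exposure at the L4 stage moved fewer members. Of 42 members tested, 2 were called higher, where 0.585% of 11964 genes were, and 4 lower, where 3.20% were. The largest change was a fall of ugt-18. On the adjusted p alone 12 were higher and 9 lower, against 20.3% and 15.8% of all genes. The groups did not overlap for 24 of the 42, against 36.8% of all genes, and voom called 6 higher and 5 lower of 48, where 0.990% and 6.16% of all genes were. The median log2 fold change was 0.02 over these members and 0.05 over all genes.

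The fall of ugt-18 was from 27.6, 29.3, 28.8 and 24.9 FPKM in L4 CNT to 2.51, 1.89, 2.27 and 3.13 in L4 TM. The groups did not overlap, and the treated mean was 11.3-fold lower. With a log2 fold change of -3.06 ± 0.11 (SE, limma adjusted p = 1.19e-06), ugt-18 ranked 3 from the bottom of the 11964 genes tested. It was called under every alternative run.

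Next came ugt-35, ugt-37 and ugt-52. The 4 control libraries held 3.66, 4.42, 3.98 and 3.16 FPKM of ugt-35 (chromosome V, 10651879 to 10654265) and the treated libraries 0.928, 1.07, 1.198 and 1.13. Every treated library was below every control, and the log2 fold change was -1.20 ± 0.11 (SE, limma adjusted p = 0.000118). In the EMBRYO groups this gene had at most 1 read per library and was not tested for TM. For ugt-37 (chromosome V, 7141942 to 7145318) the values were 6.14, 8.58, 5.87 and 5.51 and 2.101, 2.16, 2.01 and 2.80, with L4 CNT replicate 2 the highest, for a log2 fold change of -1.19 ± 0.14 (SE, limma adjusted p = 0.000417). It overlaps ugt-40 on the same strand by 23 bases, a gene whose mean was at most 0.101 FPKM in any group. Levels of ugt-52 (chromosome IV, 778784 to 784135) were 3.04, 2.78, 3.51 and 3.26 in the controls and 1.008, 1.56, 0.596 and 1.18 after treatment. It changed by -1.01 ± 0.15 on the log2 scale (SE, limma adjusted p = 0.00147), and the call was lost at -0.97 without L4 CNT replicate 3, -0.996 without L4 CNT replicate 4, -0.998 without L4 TM replicate 1 and -0.89 without L4 TM replicate 3.

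The members called higher in L4 TM were ugt-12 and ugt-53. Levels of ugt-12 were 5.14, 5.88, 5.22 and 4.81 FPKM in the controls and 12.9, 12.9, 12.8 and 11.6 in the treated libraries, which did not overlap. Its log2 fold change was 1.11 ± 0.08 (SE, limma adjusted p = 2.41e-05), and at the pseudocount of 1 it was the only member called higher by limma in both TM comparisons. Voom on the recovered reads called ugt-30, ugt-41 and ugt-53 higher in both as well, and limma with a pseudocount of 0.1 added ugt-53. For ugt-53 (chromosome V, 2849352 to 2852031) the values were 1.12, 1.75, 0.629 and 1.12 and 2.74, 3.89, 3.51 and 3.57, with a log2 fold change of 1.05 ± 0.17 (SE, limma adjusted p = 0.00192). Without L4 CNT replicate 3, the lowest of its controls, the change was 0.93 and the count of higher calls was 1.

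Close to the threshold stood ugt-47 (chromosome V, 10096305 to 10098594), one of the highest members of L4 TM. Controls held 15.7, 24.0, 15.9 and 15.1 FPKM and treated libraries 29.2, 31.6, 29.3 and 52.6, so replicate 2 was high among the controls and replicate 4 among the treated. The log2 fold change was 0.95 ± 0.21 (SE, limma adjusted p = 0.00898), and it passed at 1.10 without L4 CNT replicate 2, 1.03 without L4 TM replicate 1 and 1.03 without L4 TM replicate 3. In EMBRYO TM its mean was 16.8 FPKM against 8.73 in EMBRYO CNT, at 0.86 ± 0.14 (SE, limma adjusted p = 0.000874), inside the fold threshold as well. Without L4 TM replicate 4, L4 TM had 2 members higher and 5 lower, the added one being ugt-54. In L4 TM none of the 6 yolk genes and of 9 sperm, 12 germline, 10 body muscle, 8 neuron and 9 epidermis markers tested was called by limma. At an unadjusted p under 0.05 the numbers higher and lower were 1 and 3 for yolk, 0 and 0 for sperm, 11 and 0 for germline, 1 and 2 for muscle, 1 and 4 for neurons and 2 and 4 for epidermis, and voom on the recovered reads called 1 lower in each of the last 3. Germline sums were 3947.5 to 4324.7 FPKM in L4 CNT and 4996.6 to 5702.4 in L4 TM. Of 10 intestine markers mtl-2, a metallothionein, was lower, with asp-1 at -0.995 and elt-7 at -0.98 just inside the threshold. At an unadjusted p under 0.05 the intestine markers were 1 higher and 6 lower, voom called 3 of 11 lower, and the intestine sums were 5353.4 to 6932.7 FPKM in L4 CNT and 3209.1 to 4288.6 in L4 TM, without overlap. Most of these sums was asp-1, at means of 4455.2 and 2238.2 FPKM. The part of these differences in the ugt values was not tested.

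**Figure D3:**
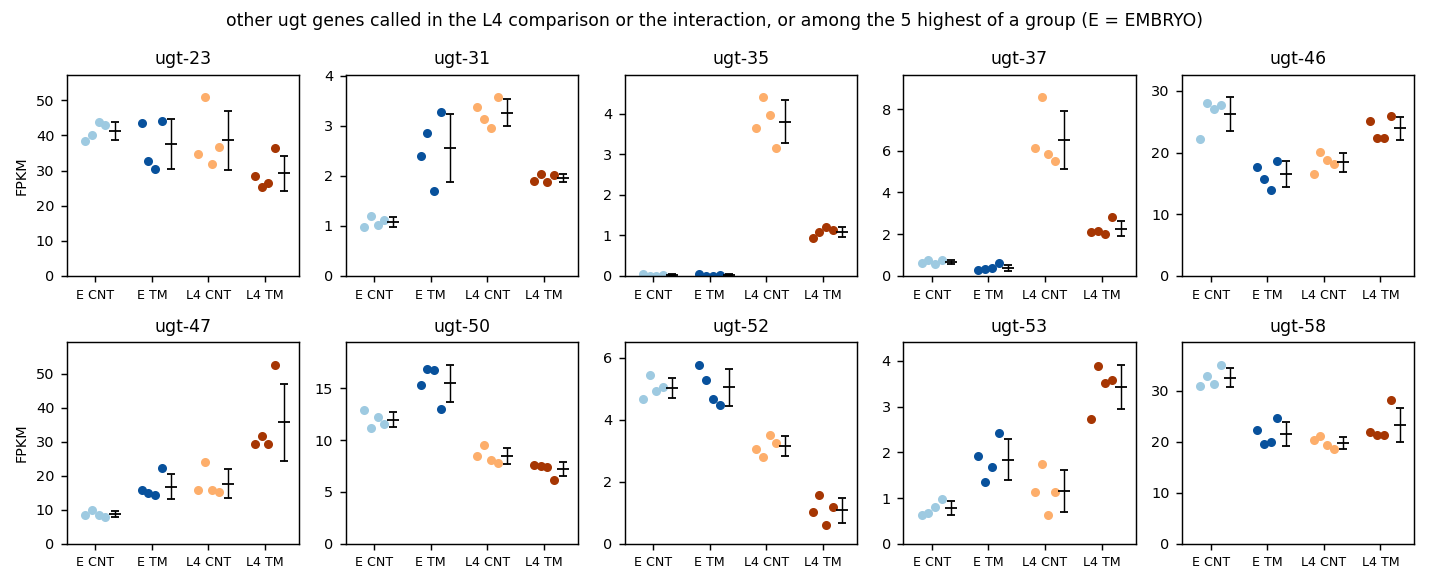
FPKM (vertical axes, each from 0) of 10 further ugt genes that were called in L4 TM against L4 CNT or in the interaction, or were among the 5 highest of a group, 1 point per library with the mean and SD beside them. The L4 TM points of ugt-35, ugt-37 and ugt-52 lie below all L4 CNT points, those of ugt-53 above, and L4 TM replicate 4 of ugt-47 lies at 52.6 FPKM against 29.2 to 31.6 in the other 3.

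Whether exposure at the embryonic stage and at L4 acted differently on a member was tested as the difference of the log2 fold changes, EMBRYO minus L4, over all 16 libraries. Of 45 members tested, 9 were called with a higher EMBRYO effect, where 6.50% of 13856 genes were, and 2 with a lower one, where 4.22% were. On the adjusted p alone it was 14 and 6, where 14.8% and 14.4% of all genes were, and by voom 11 and 2 of 50, where 8.70% and 4.32% were. The median difference was 0.28 over the members and -0.01 over all genes. A higher EMBRYO effect was also called for all 6 yolk genes, 9 of 9 sperm, 6 of 10 intestine, 2 of 10 epidermis and 1 of 12 germline markers. A lower one was called for 1 of 10 body muscle markers. The part of these differences in the ugt values was not tested. Stage of exposure, time from exposure to harvest and developmental stage at harvest cannot be told apart in this comparison.

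The largest difference among the members belonged to ugt-18, which rose after exposure as embryos and fell after exposure at L4. The difference was 5.59 ± 0.19 (SE, limma adjusted p = 8.81e-12), rank 6 of the 13856 genes tested. Controls of ugt-18 started 3.83-fold apart, at 7.22 FPKM in EMBRYO CNT and 27.7 in L4 CNT, and the treated groups ended at 46.9 and 2.45.

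In the other 8 with a higher EMBRYO effect the sizes were smaller. The differences were 1.68 ± 0.20 for ugt-19, 1.67 ± 0.17 for ugt-62, 1.64 ± 0.14 for ugt-22 and 1.55 ± 0.19 for ugt-44 (SE). They were 1.40 ± 0.15 for ugt-26, 1.28 ± 0.17 for ugt-31, 1.20 ± 0.15 for ugt-35 and 1.01 ± 0.18 for ugt-52 (SE), and limma adjusted p over the 8 ranged from 3.78e-07 to 0.000483. Their patterns were not alike. In L4 TM, ugt-22 was at 0.85 and ugt-26 at 0.50 on the log2 scale, the same direction as in EMBRYO TM, while ugt-19 was at -0.65, ugt-62 at -0.31 and ugt-31 at -0.52, the opposite one. For ugt-35 the difference comes from L4 alone, since both EMBRYO groups had almost no reads, and for ugt-52 the EMBRYO change was 0.00. The call of ugt-52 was lost without EMBRYO CNT replicate 1 (0.98), EMBRYO TM replicate 1 (0.95), EMBRYO TM replicate 2 (0.99), L4 CNT replicate 3 (0.97), L4 CNT replicate 4 (0.996), L4 TM replicate 1 (0.998) or L4 TM replicate 3 (0.89).

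Both members with a lower EMBRYO effect were well expressed in EMBRYO CNT. For ugt-1 the difference was -1.32 ± 0.16 (SE, limma adjusted p = 1.53e-05), with L4 means of 1.75 and 1.39 FPKM beside 9.14 and 2.56 in the EMBRYO groups. For ugt-46 (chromosome X, 525928 to 530176) it was -1.003 ± 0.14 (SE, limma adjusted p = 6.04e-05), from means of 26.3 and 16.5 FPKM in the EMBRYO groups and 18.4 and 23.9 in the L4 groups. That call was lost when any 1 of 9 libraries was left out, namely EMBRYO CNT replicates 2 (-0.97), 3 (-0.99) and 4 (-0.97), EMBRYO TM replicates 2 (-0.98) and 3 (-0.93), L4 CNT replicates 1 (-0.96) and 4 (-0.998), and L4 TM replicates 1 (-0.98) and 4 (-0.97), which leaves 1 lower call.

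Over the 39 members tested in both TM comparisons, which use different libraries, Pearson's r of the log2 fold changes was 0.01, and 0.44 over the 38 without ugt-18. Spearman's rho was 0.31. Over the 11671 genes tested in both, r was 0.37 and rho 0.46. These are descriptions across genes, which share the libraries within each comparison and are not independent. In sign, 17 members were higher in both, 7 lower in both, 9 higher in EMBRYO TM and lower in L4 TM, and 6 the reverse. These sign counts were not made over all genes.

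**Figure D4:**
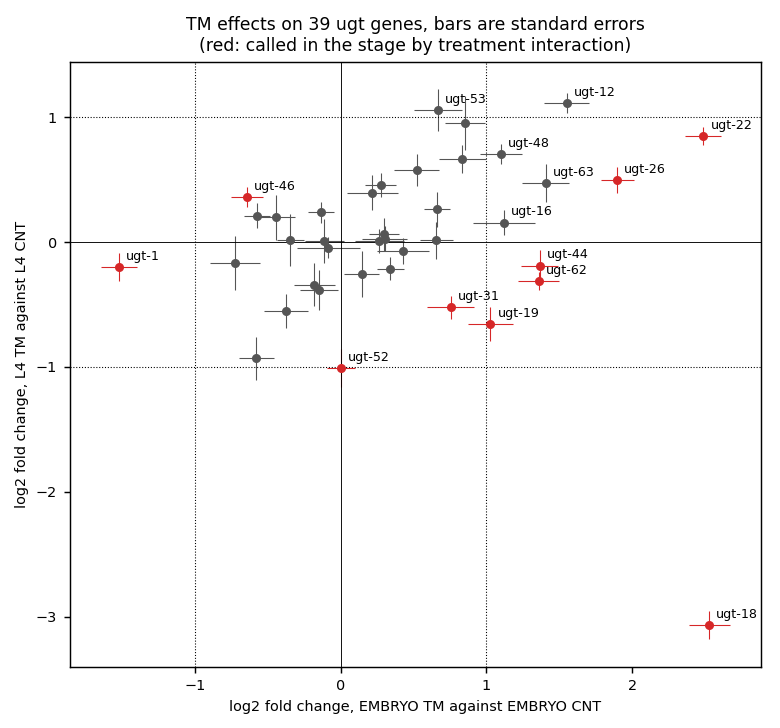
Log2 fold change of the 39 ugt genes tested in both TM comparisons, EMBRYO TM against EMBRYO CNT (horizontal axis) and L4 TM against L4 CNT (vertical axis), 1 point per gene with SE bars, dotted lines at 1 and -1 and red for members called in the interaction. Alone at the lower right, ugt-18 has 2.53 and -3.06, while ugt-12 is beyond 1 on both axes.

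The control groups of the EMBRYO and L4 arms already differed. In EMBRYO CNT against L4 CNT, 3 of 42 members tested were higher, where 26.1% of 14221 genes were, and 10 lower, where 14.5% were. The adjusted p alone gave 12 and 22, where 43.2% and 40.1% of all genes were, and voom 6 and 17 of 47, where 32.5% and 19.4% were. The median log2 difference was -0.47 over the members and 0.08 over all genes. Those higher in EMBRYO CNT were ugt-1 (1.89 ± 0.09), ugt-55 (1.59 ± 0.14) and ugt-54 (1.16 ± 0.12, SE). Those lower were ugt-22 (-3.02), ugt-62 (-2.37), ugt-35, ugt-37 (-2.15), ugt-44 (-2.12), ugt-19 (-1.84), ugt-18 (-1.80), ugt-16 (-1.31), ugt-28 (-1.23) and ugt-31 (-1.03), with limma adjusted p from 3.29e-09 to 9.58e-06. The mean of ugt-22 was 1.14 FPKM in EMBRYO CNT and 16.4 in L4 CNT, that of ugt-62 11.9 and 65.9. Of these 13, ugt-55 averaged 0.854 FPKM in L4 CNT and ugt-16, ugt-19, ugt-35 and ugt-37 at most 0.987 in EMBRYO CNT, so these 5 passed the filter only through the group where they were high and a difference was built into their being tested. Without L4 CNT replicate 4 the value of ugt-31 was -0.999 and its call was lost. All 6 yolk genes were lower in EMBRYO CNT as well, as were 5 of 10 intestine and 3 of 12 germline markers. Higher were 2 of 10 intestine, 4 of 10 epidermis, 6 of 10 neuron and 6 of 10 body muscle markers, and no sperm marker was called by limma or voom, with 4 higher and 1 lower at an unadjusted p under 0.05. The part of these differences in the ugt values was not tested, and a difference in developmental stage and a difference between the arms cannot be told apart.

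Between the treated groups 8 of 45 members differed. In EMBRYO TM against L4 TM, 5 were higher, where 21.9% of 13373 genes were, and 3 lower, where 8.18% were, with medians of -0.16 over the members and -0.03 over all genes. The adjusted p alone gave 12 and 14, where 35.6% and 37.1% of all genes were, and voom 9 and 7 of 50, where 29.1% and 8.94% were. The higher ones were ugt-18 (3.79 ± 0.16), ugt-52 (1.55 ± 0.16), ugt-54 (1.51 ± 0.17), ugt-13 (1.35 ± 0.13) and ugt-50 (1.01 ± 0.11, SE). Lower were ugt-22 (-1.38 ± 0.12), ugt-37 (-1.22 ± 0.14) and ugt-47 (-1.02 ± 0.21, SE), and limma adjusted p over the 8 ranged from 2.87e-07 to 0.00173. Both ugt-13, at 0.238 FPKM in L4 TM, and ugt-37, at 0.400 in EMBRYO TM, passed the filter only through the group where they were high. Calls of 2 of the 8 hung on single libraries. For ugt-47 the value was -0.998, -0.97 or -0.95 without EMBRYO TM replicate 1, 2 or 3 and -0.82 without L4 TM replicate 4. For ugt-50 it was 0.97 without EMBRYO TM replicate 2 or 3 and 0.95 without L4 TM replicate 4. Markers differed here too, with 9 of 9 sperm, 6 of 10 neuron, 5 of 10 body muscle, 5 of 10 epidermis and 4 of 10 intestine markers higher in EMBRYO TM, and 3 of 6 yolk genes, 1 intestine and 1 of 12 germline markers lower. Sperm sums were 689.8 to 717.3 FPKM in EMBRYO TM and 174.5 to 236.4 in L4 TM, and intestine sums 7560.8 to 16236.4 and 3209.1 to 4288.6. Most of the intestine sums was asp-1, at means of 11069.1 and 2238.2 FPKM. The part of these differences in the ugt values was not tested, and a difference in developmental stage and one between the arms cannot be told apart here either.

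Members that lie side by side often had unlike levels. With a gap of at most 20000 bases, 37 members fell into 11 runs. The largest, on chromosome V, holds 8 members, ugt-12, ugt-11, ugt-9, ugt-10, ugt-67, ugt-8, ugt-14 and ugt-13, from chromosome V, 4887173 to 4889616 at one end to chromosome V, 4908871 to 4911458 at the other, and only ugt-12 and ugt-13 passed the filter in any comparison. On the same chromosome ugt-18 is followed by ugt-16 and ugt-15. There ugt-18 went from 27.7 to 2.45 FPKM between the L4 groups, ugt-16 from 2.48 to 2.88, and ugt-15 was at 0.0200 and 0.00839. Next to each other on chromosome IV, ugt-43 was at 2.33 FPKM in EMBRYO CNT, 2.099 in EMBRYO TM, 2.05 in L4 CNT and 2.08 in L4 TM, and ugt-44 at 9.61, 26.7, 45.1 and 39.8. The pair ugt-1 and ugt-2 started alike in EMBRYO CNT, at 9.14 and 9.39 FPKM, and stood at 2.56 and 7.17 in EMBRYO TM. On chromosome I, in the run of ugt-26, ugt-27, ugt-28 and ugt-25, ugt-26 rose in EMBRYO TM while ugt-28 was at 0.30 (95% interval -0.05 to 0.65). Tandem members can be near copies, and how the counting treated reads that match several of them is not stated, so values within a run are less certain than others.

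**Figure D5:**
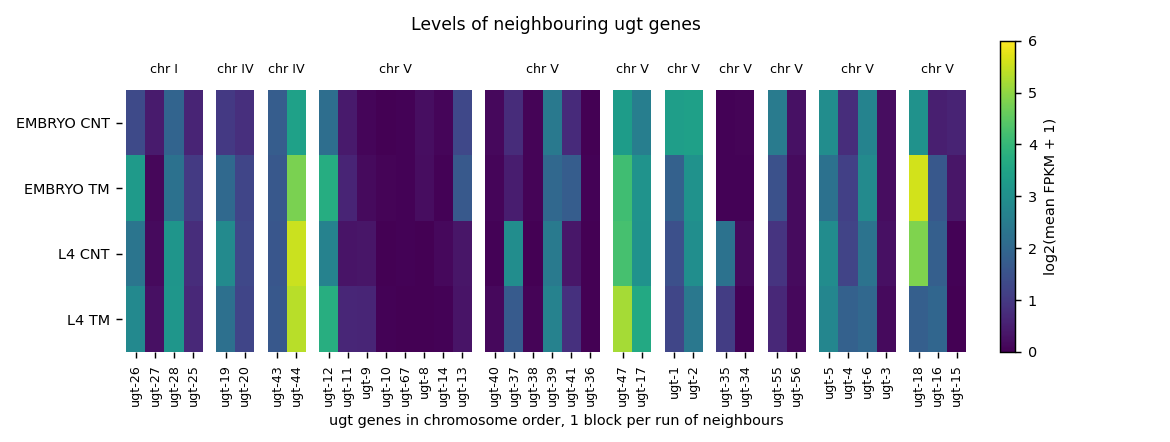
Mean FPKM of 4 libraries as log2(mean FPKM + 1) (colour) for the 37 ugt genes in 11 runs of neighbours (columns, in chromosome order) in the 4 groups (rows). Within most runs 1 or a few columns are bright and the rest dark, as in the run of ugt-18, ugt-16 and ugt-15.

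A large part of the family was hardly detected in these worms. In 19 members the mean was under 1 FPKM in all 4 groups, 20 did not pass the filter for limma in any comparison, and 10 had under 10 reads in every library. The 20 were ugt-3, ugt-8, ugt-9, ugt-10, ugt-11, ugt-14, ugt-15, ugt-25, ugt-27, ugt-32, ugt-33, ugt-34, ugt-36, ugt-38, ugt-40, ugt-42, ugt-56, ugt-57, ugt-66 and ugt-67. Among the rest, 46 were tested in at least one TM comparison and 37 in every comparison. Of the 20, 4 had enough reads for voom in at least one comparison, which called 3. It called ugt-25 higher in EMBRYO TM (means 0.509 and 1.02 FPKM), ugt-11 higher in L4 TM (0.245 and 0.558) and ugt-9 lower in EMBRYO TM than in L4 TM, where ugt-9 was at 0.202, 0.136, 0 and 0.0977 FPKM in the first and 0.512, 0.131, 0.449 and 1.100 in the second. Those groups overlapped, and L4 TM replicate 4 was the highest. The other 16 were called under no alternative run, the one without a filter included, which at these depths does not show that none changed. A case at the filter, chosen after its values were seen, is ugt-30, tested for neither TM effect in the main fits. It was called higher in EMBRYO TM by limma without a filter or with TPM rescaling, and in both arms by voom. It was at 0.143, 0.193, 0.212 and 0.213 FPKM in EMBRYO CNT and 1.72, 1.59, 1.06 and 1.73 in EMBRYO TM, and at 0.269, 0.359, 0.266 and 0.297 in L4 CNT and 1.40, 1.46, 1.48 and 0.996 in L4 TM, without overlap in either arm.

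For ugt-65, which overlaps the collagen gene col-130 on the opposite strand by 1012 bases, reads of the pair cannot be told apart unless the counting used strand. Its means were 0.625 FPKM in EMBRYO CNT, 1.89 in EMBRYO TM, 1.92 in L4 CNT and 3.62 in L4 TM, and those of col-130 were 8.70, 37.9, 4.41 and 6.52. At the pseudocount of 1 ugt-65 was inside the fold threshold in both TM comparisons, at 0.83 and 0.67 on the log2 scale, while voom on the recovered reads (1.64) and limma with a pseudocount of 0.1 called it higher in EMBRYO TM.

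Other detoxification genes were counted in the same way. Of all genes tested, limma called 5.06% higher and 7.61% lower in EMBRYO TM, and 0.585% and 3.20% in L4 TM. By voom it was 7.11% and 11.8%, and 0.990% and 6.16%. No share of all genes at an unadjusted p was computed. Of 40 cytochrome P450 (cyp-) genes tested in EMBRYO TM none was higher and 4 were lower, and of 39 in L4 TM none was higher and 12 were lower, by the limma test. At an unadjusted p under 0.05, EMBRYO TM had 6 higher with 18 lower and L4 TM 4 with 25, and voom called 1 higher and 11 lower of 55 and 2 higher and 18 lower of 48. The median log2 fold changes of the cyp- genes were -0.24 and -0.51. Of 31 glutathione S-transferase (gst-) genes 3 rose and 7 fell in EMBRYO TM, and 1 of 26 was higher in L4 TM. Among exporters, 2 of 9 pgp- genes rose and 1 fell in EMBRYO TM. By limma none of 6 pgp- genes was called in L4 TM (1 higher and 3 lower at an unadjusted p under 0.05, 1 lower by voom), and none of 8 mrp- genes was called in either (0 in EMBRYO TM, 5 higher and 1 lower in L4 TM at an unadjusted p under 0.05, and 0 by voom). The medians of the gst-, pgp- and mrp- genes in EMBRYO TM were -0.28, 0.50 and 0.15. Whether the families differ was not tested.

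Genes that make, convert or carry UDP-sugars were on a list of 4, not all of them sources of UDP-glucuronic acid. In EMBRYO TM 1 of them was called, and 3 were higher at an unadjusted p under 0.05. UDP-galactose 4-epimerase, gale-1, went from 21.1 to 51.1 FPKM, a log2 fold change of 1.23 ± 0.10 (SE), limma adjusted p = 1.31e-05. The UDP-glucose dehydrogenase sqv-4, which makes UDP-glucuronic acid, was at 64.0 and 89.95, inside the fold threshold at 0.49 (limma adjusted p = 0.000644). Also inside it was sqv-1 at 0.31 (limma adjusted p = 0.0347). None of the 4 was called in L4 TM by limma or voom, with 2 higher at an unadjusted p under 0.05. Of 11 regulators of detoxification tested, the nuclear receptor nhr-114 went from 19.7 to 68.9 FPKM in EMBRYO TM (1.74 ± 0.14 (SE), limma adjusted p = 1.67e-05). The aryl hydrocarbon receptor ahr-1 went from 4.38 to 1.63 (-1.03 ± 0.10 (SE), limma adjusted p = 5.11e-05). None of the 10 regulators tested in L4 TM was called by limma or voom, and at an unadjusted p under 0.05, 3 were higher and 3 lower. Among the higher ones was nhr-114, which went from 17.7 to 33.5 FPKM (0.88 ± 0.07 (SE), limma adjusted p = 6.61e-05), inside the fold threshold. The difference of its 2 TM effects, 0.85 ± 0.17 (SE), was inside the threshold as well. At means of 0.369 and 0.422 FPKM in the L4 groups, ahr-1 was not tested there.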

How the data were processed

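The authors aligned the reads with HISAT2 2.0.5, counted them per gene with featureCounts 1.5.0-p3, used DESeq2 for their own tests and deposited FPKM, 1 column per library, with gene length and position. StringTie 1.3.3b and edgeR 3.22.5 are also named in the submitters' processing notes, without a role. The genome build, and whether the counting used strand, are not given in the sources used here. Symbols came from the WBcel235 annotation for 46183 genes and 406 had none. In every library 100% of the deposited FPKM values, multiplied by gene length, were whole multiples of 1 step within 0.01 reads, which gave the reads used for depth and for 1 alternative.

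Each comparison was fitted with limma 3.58.1 in R 4.3.3 (empirical Bayes with a trend) on log2(FPKM + 1), so that fold changes of low genes are understated. Genes with a mean of at least 1 FPKM over the libraries compared entered, and two-sided p-values were adjusted by Benjamini-Hochberg over all of them. Counts of markers and other genes at an unadjusted p have no share of all genes beside them, as none was computed. Only the ugt values are described. Before use the test was run on simulated data for pairs of groups, with large changes in genes of at least 5 FPKM. The interaction, and changes near the threshold or in lower genes, were not simulated. Alternatives were pseudocounts of 0.1 and 5, no filter, a mean of at least 5 FPKM, median-ratio and TPM rescaling, voom on the recovered reads (mean of at least 10), the adjusted p alone, a replicate block, all 16 libraries in one model, and each library left out.

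Members named singly are those past both thresholds in a TM comparison or the interaction and the 5 highest of each group, 22 in all, and any called between controls or between treated groups. The members and lists were chosen with earlier results of these data known. Promoter motifs and protein identities were planned and are not analysed here. Tables used pandas 2.3.3 under Python 3.11.15, and plots matplotlib 3.10.9.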

Additional observations from a re-analysis of the deposited data

Results flagged for a closer look

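In 92 sets of 4 libraries (22 members and the family sum in 4 groups), 11 had 1 library far from the other 3 by Dixon's test for 4 samples, where chance gives about 1 in 20. Of these, 8 were L4 TM replicate 4, the deepest library, at 1.73 FPKM for ugt-1, 11.6 for ugt-12, 1.34 for ugt-41, 51.4 for ugt-44, 52.6 for ugt-47, 6.17 for ugt-50, 28.3 for ugt-58 and 490.1 for the family sum. For ugt-12 and ugt-50 it was the lowest of its group and for the others the highest. The remaining 3 were ugt-16 in EMBRYO TM replicate 3 at 1.083 FPKM, ugt-46 in EMBRYO CNT replicate 1 at 22.1 and ugt-47 in L4 CNT replicate 2 at 24.0. The part of depth in these values was not tested.

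The response to TM differed between exposure as embryos and at L4 for 11 of 45 members, by the limma test of the difference. Of these, 9 had a higher EMBRYO effect and 2 a lower one, where 6.50% and 4.22% of all genes tested did. On the log2 scale, EMBRYO minus L4, it was 5.59 for ugt-18, 1.68 for ugt-19, 1.67 for ugt-62, 1.64 for ugt-22, 1.55 for ugt-44, 1.40 for ugt-26, 1.28 for ugt-31, 1.20 for ugt-35 and 1.01 for ugt-52, and -1.32 for ugt-1 and -1.003 for ugt-46. Of the 11, 5 had opposite signs in EMBRYO TM and L4 TM with a limma adjusted p under 0.05 in each, namely ugt-18, ugt-19, ugt-31, ugt-46 and ugt-62. The 11 were picked by the size of the difference, which favours opposite signs, and the share over all genes was not computed. Stage of exposure cannot be told apart here from time to harvest or developmental stage at harvest.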

How the results depend on the processing

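Calls of low members hung on the scale of the low values. Counts are given as higher and lower calls for EMBRYO TM, L4 TM, the interaction, EMBRYO CNT against L4 CNT, and EMBRYO TM against L4 TM, in this order, and were 11 and 1, 2 and 4, 9 and 2, 3 and 10, and 5 and 3. A pseudocount of 5, which shrinks low genes, gave 6 and 0, 0 and 1, 3 and 0, 1 and 5, and 1 and 1. With 0.1 they were 14 and 3, 2 and 5, 11 and 2, 5 and 13, and 7 and 5. A mean of at least 5 FPKM, with fewer genes tested, gave 6 higher in EMBRYO TM, 1 and 1 in L4 TM, 5 and 1 in the interaction, 5 lower in EMBRYO CNT and 2 higher in EMBRYO TM against L4 TM. TPM rescaling gave 2 lower in EMBRYO TM and 6 higher in EMBRYO CNT.

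Voom on the recovered reads, which tests more low genes, gave 16 and 3 of 49, 6 and 5 of 48, 11 and 2 of 50, 6 and 17 of 47, and 9 and 7 of 50, where 7.11% and 11.8%, 0.990% and 6.16%, 8.70% and 4.32%, 32.5% and 19.4%, and 29.1% and 8.94% of all genes were called. It called ugt-30 higher in both TM comparisons. The adjusted p alone gave 21 and 9, 12 and 9, 14 and 6, 12 and 22, and 12 and 14.

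With each library left out in turn, the counts ranged over 9 to 11 higher and 1 to 2 lower in EMBRYO TM, 1 to 3 higher and 3 to 5 lower in L4 TM, 8 to 10 higher and 1 to 2 lower in the interaction, 3 to 4 higher and 10 to 11 lower in EMBRYO CNT against L4 CNT, and 4 to 6 higher and 2 to 4 lower in EMBRYO TM against L4 TM. Same-numbered libraries showed little shared deviation from their group means, with r from -0.23 to 0.09 in the EMBRYO arm and from -0.31 to 0.20 in the L4 arm. Whether same-numbered plates shared a batch cannot be read from these values, and the main fits did not pair them. With the replicate block the counts were 11 and 1, 2 and 4, 9 and 2, 3 and 10, and 5 and 3. No named member reversed its direction where it was called. Over the named members, the other settings called 63 values that the main fits did not. They undid 35 calls while 948 values stayed. The adjusted p alone, which has no fold threshold, is among these settings, and 1 value of ugt-55 is in the 35 more than once. Leaving out 1 library added 19 calls and undid 34 while 1021 values stayed.

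The filter kept 20 members out of every limma comparison, and voom on the recovered reads tested 4 of them and called 3. The other 16, most with a few reads per library, passed neither filter. Whether depth or low expression accounts for this was not tested. Counting error of single reads and PCR duplicates cannot be separated, strand use in counting is unknown, and how reads shared by near-identical members were counted is not stated. Levels in whole worms mix all tissues.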
